A study of Mus musculus with 8 samples.

Results

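Peaks of RBM45, a protein that binds RNA through RRM domains, were described in the 8 mouse genes of the YTH and IGF2BP families of m6A readers: Ythdf1, Ythdf2, Ythdf3, Ythdc1, Ythdc2, Igf2bp1, Igf2bp2 and Igf2bp3. A peak was taken for one of these genes where its midpoint lay within the gene body on the same strand (mm10 build, GENCODE M21 annotation). This gave 411 distinct intervals, of 731580 distinct intervals in the lists of WT CLIP replicates 1 and 2 together. Both libraries came from WT cells of mHiPPoE-2, a transformed line of mouse hippocampal neurons (strain Crl:CFW(SW)-024), to which a lentivirus had added mouse RBM45 carrying FLAG and HA tags. The RNA was recovered by iCLIP with an antibody against HA. In iCLIP, UV light links a protein to the RNA it touches, the protein is pulled down and the linked RNA is sequenced. The pull-down therefore reads the added, tagged RBM45 and not the cells' own. The series has 8 libraries in 4 groups of 2, namely CLIP and size-matched input from Mettl3 KO cells and from WT cells, and the values below rest on the WT CLIP peak lists alone. Whether the replicates are separate cultures is not stated in the labels. With 1 group of 2 libraries no difference between conditions was tested.

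The chemical mark m6A, a methyl group on adenosine, is read in mRNA by proteins that bind the methylated base or its surroundings. The YTHDF proteins bind the mark in the cytoplasm, where YTHDF1 has been tied to translation, YTHDF2 to decay through the CCR4-NOT deadenylase, and YTHDF3 to both. YTHDC1 acts in the nucleus on splicing and export, and YTHDC2 is an RNA helicase best known from meiosis in germ cells. IGF2BP1, IGF2BP2 and IGF2BP3 carry KH domains, bind many fetal and growth-related mRNAs and are known to stabilise them. What is described here is where peaks of the RBM45 CLIP were listed in these genes, not the binding of the readers themselves. The peaks were not compared with the size-matched input here, so binding was not told apart from background RNA.

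Each deposited peak has a fold over background and a −log10 p, both as the authors' peak caller gave them. From these 2 values the number of overlapping reads at the peak was solved, called its height here, together with the background, the number of reads the caller expected at that place. The peak names carry a p threshold of 0.005. At that threshold a single read is enough where the background is at most 0.103 reads, and a height of 2 where it is at most 0.338 reads. Replicate 1 listed 387749 distinct peaks and replicate 2 listed 344700, and the median peak was 30 bp wide in both. A height of 1 made up 76.7% of all peaks in replicate 1 and 69.6% in replicate 2. Most peaks of these lists therefore have no position where the caller counted more than 1 read. Its settings are not given, so whether reads at the same place were first merged into 1 is not known. The number of reads in each library is not known from the files, so the intervals below cover counting error over peaks only.

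The exonic peak with the highest fold in each reader gene and replicate is shown by its sequence. For each, the 30 bases around the peak midpoint are given, and first the 25 bases that both replicates covered in Ythdf3. Peaks of height 1, those whose window crosses the end of an exon, and those of Ythdc2 are not shown. Nor are exonic peaks of lower fold in the same gene and replicate, such as Ythdf3 at 16204977 to 16205006 (replicate 1, height 5). Capitals mark GAC and AAC, the core letters of the m6A consensus, and TTTTT, a run of uridines in the RNA. The sequences were read on the sense strand from GENCODE M21 transcripts (mm10).
Ythdf3, coding, common to both replicates, chr3:16204295-16204319, plus strand: ctgcggtGACgaaAACtgtaggtac
Ythdf3, coding, replicate 1, chr3:16204270-16204299, plus strand: ctgaaaattggtggtGACctGACagctgcg
Ythdf3, coding, replicate 2, chr3:16204314-16204343, plus strand: aggtacagccttgagcagcagtggtatGAC
Ythdf2, coding, replicate 1, chr4:132204688-132204717, minus strand: ttctggatctactccttcagagcctcaccc
Ythdf1, 3' UTR, replicate 2, chr2:180905133-180905162, minus strand: tatccatcatattgctGACctgcccttttg
Igf2bp2, 3' UTR, replicate 1, chr16:22059873-22059902, minus strand: aattcttttgagtcccttcgttcTTTTTct
Igf2bp2, 3' UTR, replicate 2, chr16:22059363-22059392, minus strand: ttttaataaaaatgagttgaaaaaaaaaaa
Igf2bp3, 3' UTR, replicate 1, chr6:49086703-49086732, minus strand: tactttataaaAACtccAACcgTTTTTTTa

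The Ythdf3 site held GAC in all 3 stretches shown, while the Ythdf2 coding stretch and the replicate 2 stretch of Igf2bp2 held none of the motifs. Of the 41 exonic peaks in the reader genes, 34 had a window of 30 bases within 1 exon. GAC stood in 26.5% of those 34 windows (95% Wilson interval 14.6 to 43.1), against 32.0% of 62946 exonic windows over all genes. AAC stood in 32.4% (19.1 to 49.2), against 33.1% over all genes. TTTTT stood in 14.7% (5 windows, 6.45 to 30.1), against 5.82% over all genes. The motifs were searched on the RNA strand only, overlapping runs included, and a match is a description of letters.

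Each family held both a sparser and a denser gene. Ythdc2 had 64 peaks in replicate 1 and 48 in replicate 2 over 62.0 kb, which is 0.904 ± 0.183 peaks per kb (SD, n = 2). Igf2bp2 had 107 and 45 over 104 kb, or 0.729 ± 0.420 per kb. These were the densest readers, and the median protein-coding gene with peaks in both replicates had 0.478 per kb in replicate 1 and 0.376 in replicate 2 (14290 genes). Igf2bp1 was the sparsest, with 5 and 3 peaks over 48.8 kb, or 0.0820 ± 0.0290 per kb. Ythdf3 followed with 6 and 2 over 33.8 kb, or 0.118 ± 0.0836 per kb. Between these ends lay Ythdc1 at 0.247 ± 0.0436, Igf2bp3 at 0.328 ± 0.0164, Ythdf2 at 0.347 ± 0.129 and Ythdf1 at 0.362 ± 0.171 per kb. Along this order the replicate values of neighbours overlapped, apart from the steps between Ythdf3 and Ythdc1 and between Ythdc1 and Igf2bp3. The order of the replicates was not the same in all genes: Ythdf2, Ythdc1 and Igf2bp3 had more peaks in replicate 2, the other 5 more in replicate 1. Summed over the 8 genes, replicate 2 had 0.682 times as many peaks as replicate 1, against 0.888 times over all genes.

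**Figure D1:**
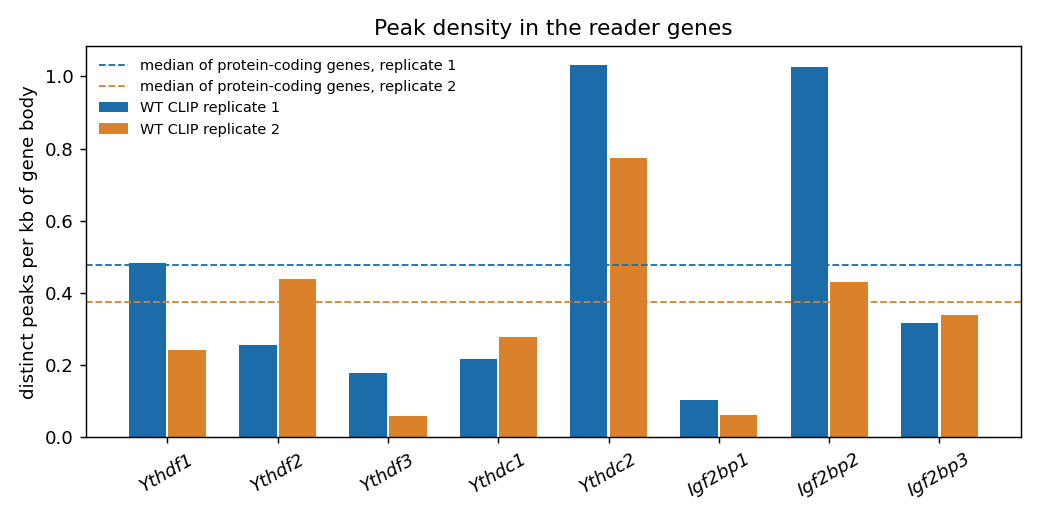
Distinct peaks per kb of gene body (vertical axis) in each reader gene, replicate 1 in blue and replicate 2 in orange, with the median of 14290 protein-coding genes as a dashed line in the same colour. Ythdc2 (1.03 and 0.774 per kb) and Igf2bp2 (1.03 and 0.431) stood above the medians of 0.478 and 0.376 in both replicates, and Ythdf3, Ythdc1, Igf2bp1 and Igf2bp3 stood below them in both.

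The YTHDF genes carried 39 of the 411 intervals, and many of their peaks were high. A height of 3 or more was reached by 47.6% of their 21 replicate 1 peaks and 66.7% of their 18 replicate 2 peaks, against 8.39% and 12.6% of the peaks over all genes. The median background of these peaks was 0.180 and 0.281 reads, against 0.0555 and 0.0630 over all genes. Above 0.103 reads a height of 1 cannot pass the threshold, and above 0.338 reads a height of 2 cannot. These shares are therefore not on 1 scale. Ythdf1 (chr2:180904377-180920949, minus strand) had 8 peaks in replicate 1, 6 of them of height 1, and 4 in replicate 2, none under a height of 3. The replicates did not meet in this gene: each replicate 1 peak lay nearer to the 5' end than each replicate 2 peak. In replicate 1, 7 peaks were in introns and 1 in coding sequence, and the highest was intronic with a fold of 3.78 and a height of 3. Replicate 2 put its highest peak in the 3' UTR, 497 nt after the stop codon, with a fold of 4.20 and a height of 5. A second 3' UTR peak lay 263 nt after the stop codon with a fold of 3.29. The least distance between peaks of the replicates was 2070 bp.

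Ythdf2 (chr4:132184912-132212303, minus strand), whose protein brings the deadenylase to marked mRNAs, had 7 peaks in replicate 1 and 12 in replicate 2. None of the 19 had a height of 1. Of these, 17 were intronic, and intron 4 of the principal transcript (17.2 kb) held 4 in replicate 1 and 7 in replicate 2. The highest folds were 3.43 in replicate 1 and 4.47 in replicate 2, both in intron 4. The exonic peaks were a neighbouring pair in coding exon 4 of replicate 1, with folds of 3.39 and 2.74. No Ythdf2 peak lay in a UTR, and the replicates came no closer than 92 bp.

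Ythdf3 (chr3:16183212-16217037, plus strand) held the highest peak of all reader genes and the pair of strong peaks that came closest to being shared. In coding exon 4, replicate 1 had a peak at 16204251 to 16204319 with a fold of 4.10, a height of 5 and a −log10 p of 5.03. In replicate 2 a peak at 16204295 to 16204363 had a fold of 5.79, a height of 9 and a −log10 p of 8.22. Both are 69 bp wide and have 25 bp in common, the first sequence printed above. That is 36.2% of each peak, and the least overlap in the deposited list of shared peaks is 50% of the replicate 2 peak, so the pair is not in that list. Replicate 1 had a further coding peak in the same exon (fold 4.09, height 5), an intron 3 peak that was its highest (fold 4.61, height 6), and a 3' UTR peak of height 3. The only other replicate 2 peak was in intron 2, with a fold of 5.03 and a height of 7. Of the 8 Ythdf3 intervals 5 were exonic, the highest exonic share of the 8 genes at 62.5%.

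The YTHDC pair had 127 intervals, most of them in Ythdc2. Ythdc1 (chr5:86804221-86836659, plus strand), the nuclear reader, had 7 peaks in replicate 1 and 9 in replicate 2. In replicate 1, 5 of the 7 had a height of 1, and the highest stood out at a height of 4 and a fold of 4.46 in intron 1. In replicate 2 no peak was under a height of 2 and none over 3, with a highest fold of 3.31 in intron 9. That peak lay in a non-coding exon in the comprehensive GENCODE set, as did several other intronic peaks of Ythdc1 in both replicates. Coding peaks of replicate 2 lay in exons 4 and 9 (folds of 3.14 and 3.16). In the 3' UTR, replicate 2 had 1 peak 71 nt after the stop codon and replicate 1 had 2, of height 1, at 292 and 590 nt. The nearest peaks of the replicates were 188 bp apart. Of the 16 Ythdc1 intervals 7 also lay in Gm43055, a long non-coding RNA gene annotated on the same strand, and the lists cannot say which transcript they came from.

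Ythdc2 (chr18:44827746-44889724, plus strand), the helicase, had the most shared peaks of the 8 genes, and every one of them had a height of 1 in each replicate. Its 64 replicate 1 peaks had a height of 1 in 60 cases and of 2 in the other 4, and its 48 replicate 2 peaks had a height of 1 in 38, of 2 in 9 and of 3 in 1. The highest folds were 2.93 in replicate 1, in introns 10 and 23, and 3.57 in replicate 2, in intron 4, 32 nt before the 3' splice site. The shared peaks lay at 44840213 to 44840242 in coding exon 6, at 44858509 to 44858538 in intron 18, at 44871427 to 44871456 in intron 23 and at 44879153 to 44879182 in intron 26 (replicate 2 positions). At the last of these both replicates listed the same 30 bases, with folds of 1.94 and 1.87. The intron 23 peak of replicate 2 had its midpoint 8 nt before the 3' splice site, and its replicate 1 partner had its midpoint in exon 24. Intron 10, of 2.43 kb, held the most peaks in replicate 1, with 9, and had no peak in replicate 2. Most of the 9 lay in a non-coding exon in the comprehensive GENCODE set. Introns 23 and 26, of 6.39 and 7.33 kb, each held 7 peaks in replicate 1, with 8 and 10 in replicate 2. Of the replicate 2 peaks 11 lay within 50 bp of a replicate 1 peak, among them 7 that did not overlap it. Among 14290 protein-coding genes, the 3 with counts and length most like those of Ythdc2 were Fgf2 (68 and 45 peaks, 4 shared), Ppp1r21 (59 and 52, 4 shared) and Dusp10 (63 and 45, 5 shared), at distances of 0.126, 0.185 and 0.279 over the log2 counts and log2 length.

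The IGF2BP genes, with 245 intervals, were the most intronic family. Introns held 95.9% of their intervals (95% Wilson interval 92.7 to 97.8), against 90.5% over all genes, and exons make up 3.88% of Igf2bp2, 3.35% of Igf2bp3 and 17.2% of Igf2bp1. Igf2bp2 (chr16:22059009-22163299, minus strand), the member known from growth and metabolism, held most of its peaks in intron 2, which is 72.1 kb long. That intron had 79 of the 107 peaks of replicate 1 and 36 of the 45 of replicate 2. Its 2 shared peaks lay in the same intron, at 22102143 to 22102172, with a height of 1 in each replicate, and at 22151222 to 22151251, with a height of 1 in replicate 1 and 2 in replicate 2. The highest fold of each replicate was elsewhere, in the 3' UTR. In replicate 1 the 3' UTR peak had a fold of 4.50 and a height of 4 at 22059866 to 22059909. In replicate 2 it had a fold of 4.90 and a height of 5 at 22059362 to 22059394, 471 bp away. The 3' UTR thus carried the gene's highest fold in each library, without overlap.

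Igf2bp3 (chr6:49085223-49214957, minus strand), whose protein is known mainly from fetal tissue, had 41 peaks in replicate 1 and 44 in replicate 2. The longest of the 8 genes at 130 kb, it had a height of 1 in 35 of the 41 and 38 of the 44. Its highest peaks lay in intron 12 in both replicates. Replicate 1 had a fold of 5.71 and a height of 5 at 49088757 to 49088792, the highest fold of that replicate in the 8 genes. Replicate 2 had a fold of 3.60 and a height of 3 at 49089284 to 49089313, 491 bp away. This intron of 2.41 kb held 5 peaks in replicate 1 and 2 in replicate 2. The shared peak was another one, at 49104114 to 49104143 in intron 10, 45 nt from the 5' splice site and with a height of 1 in each replicate. The 3' UTR carried 4 peaks in replicate 1, with folds from 1.88 to 3.69, and 0 in replicate 2.

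Igf2bp1 (chr11:95957163-96005940, minus strand) had 8 intervals in all, 7 of them intronic. In replicate 1 the highest of its 5 peaks had a height of 2 and a fold of 2.93 in intron 5, and the 3' UTR peak had a height of 1. In replicate 2 the highest of the 3 had a height of 3 and a fold of 3.18 in intron 14. The replicates came no closer than 3529 bp.

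**Figure D2:**
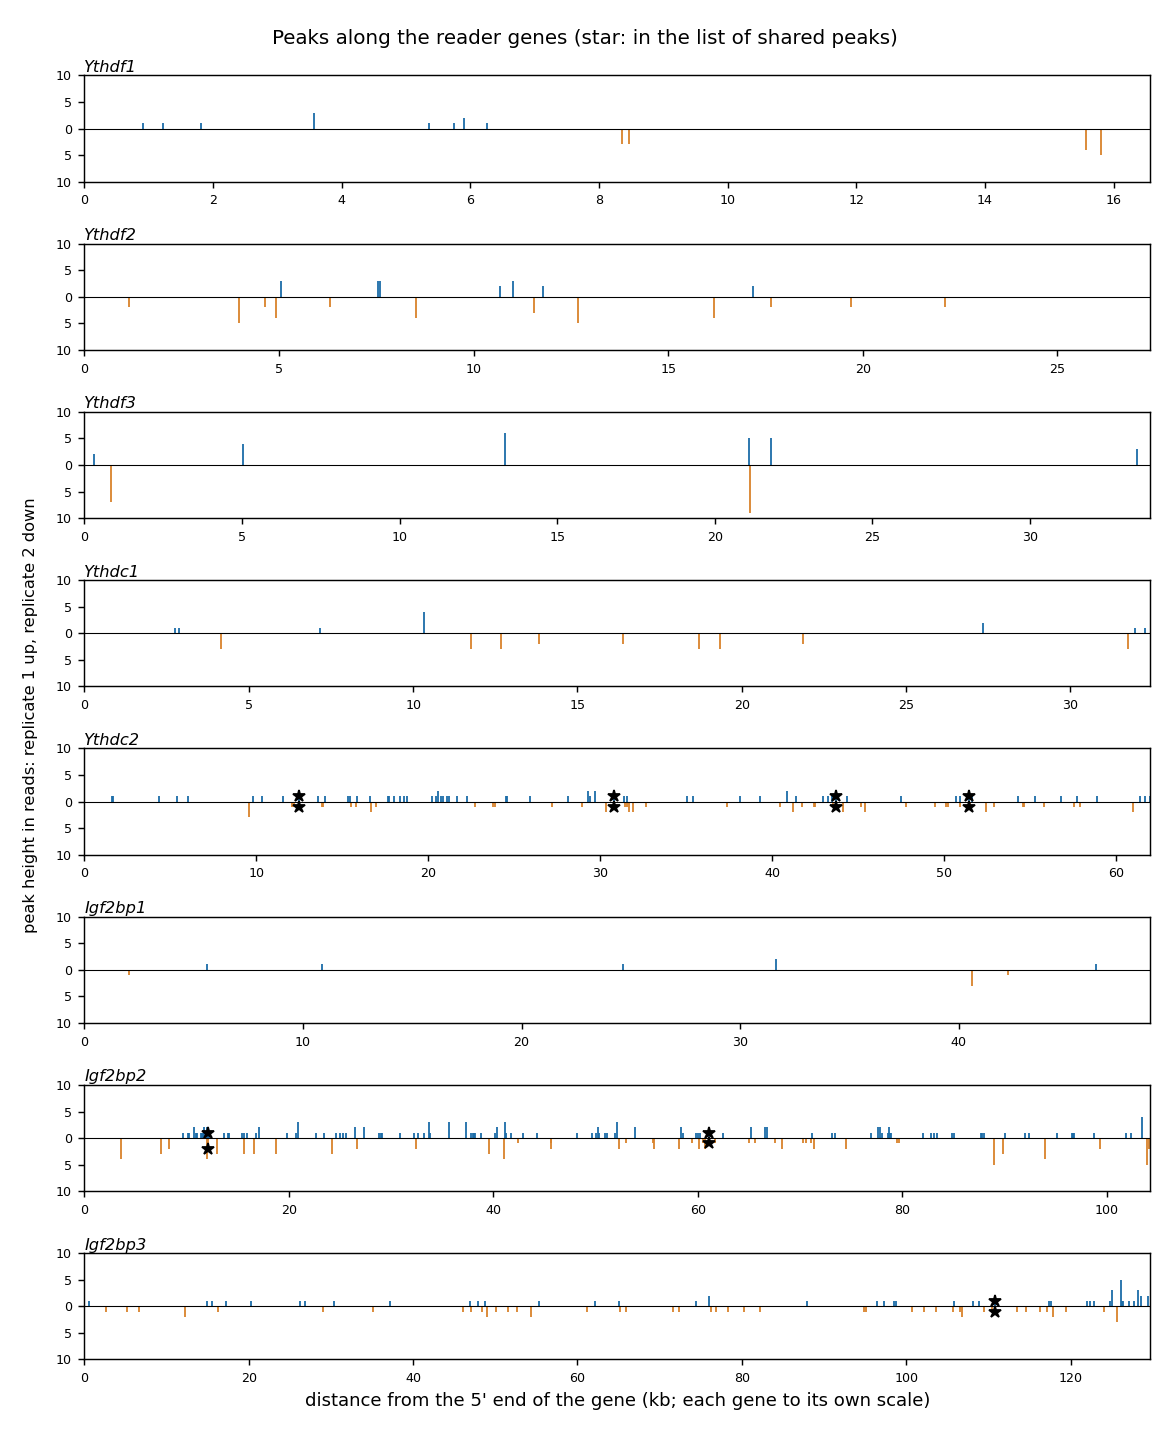
Peaks of replicate 1 (blue, upward) and replicate 2 (orange, downward) along each reader gene, with the distance from the 5' end of the gene in kb on the horizontal axis and the solved height in reads on the vertical axis. Stars mark the 7 shared peaks, which sit at heights of 1 or 2, while the tallest pair, at heights of 5 and 9 in Ythdf3, has no star.

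The background of the peak caller moved with these heights. It was highest in the YTHDF genes and Ythdc1. In Ythdf3 the median over peaks was 0.466 reads in replicate 1 and 0.660 in replicate 2, above 99.1% and 98.2% of protein-coding genes. In Ythdf2 it was 0.180 and 0.268 reads, in Ythdf1 0.0887 and 0.344, and in Ythdc1 0.0998 and 0.259. Igf2bp2 had 0.0693 and 0.125 reads and Ythdc2 0.0312 and 0.0806, beside 0.0416 and 0.0630 for the median protein-coding gene. Igf2bp1 and Igf2bp3 were at 0.0246 and 0.0404 reads, the lowest background in each list. Where the background is above 0.103 reads a single read cannot pass the threshold, and Ythdf2 and Ythdf3, whose peaks all lay above it, had no peak of height 1. The number of peaks per kb is therefore not on 1 scale across the 8 genes. What share of the differences in density and in height comes from the background was not tested.

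**Figure D3:**
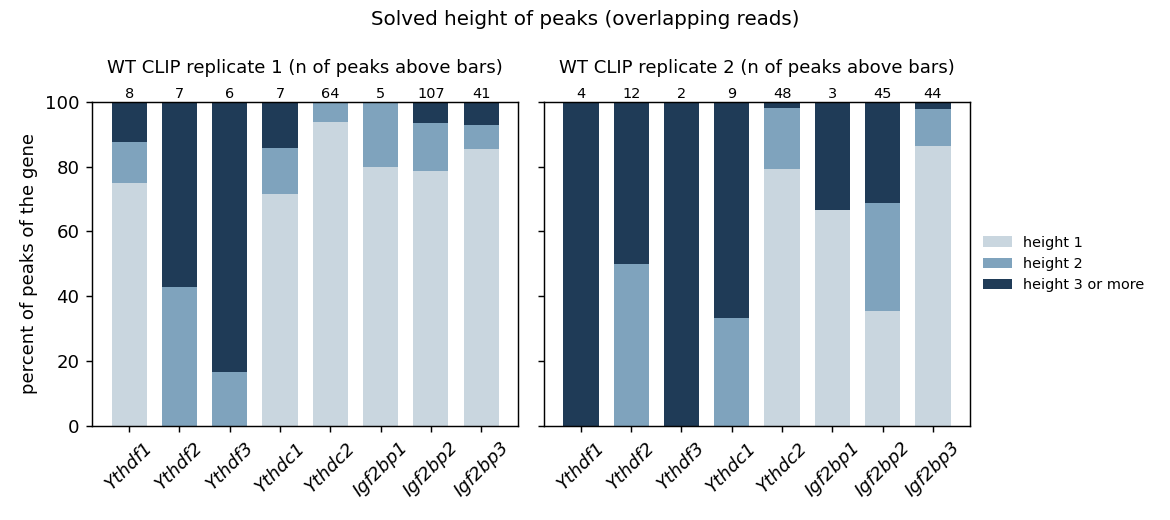
Share of the peaks of each reader gene with a solved height of 1, 2 or 3 and more, in percent, for replicate 1 (left) and replicate 2 (right), with the number of peaks above each bar. Height 1 is absent in Ythdf2 and Ythdf3 in both replicates and in Ythdf1 and Ythdc1 in replicate 2. It makes up most peaks of Ythdc2, Igf2bp1 and Igf2bp3 in both.

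**Figure D4:**
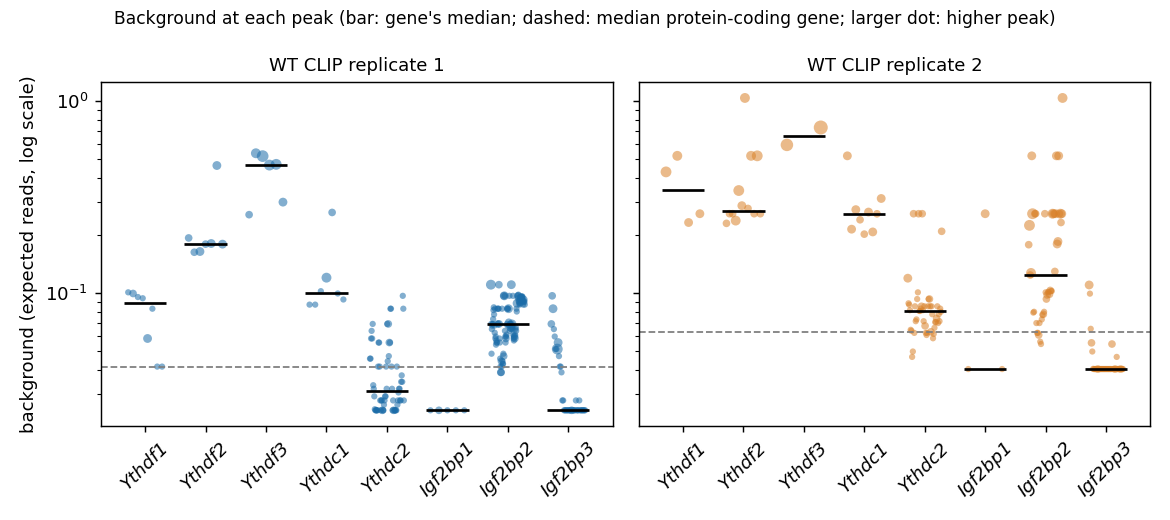
Background at each peak in expected reads, on a log scale, by gene and replicate, where a larger dot is a higher peak, the black bar is the median of the gene and the dashed line the median over protein-coding genes. The medians of Ythdf3 are the highest of the 8 genes and those of Igf2bp1 and Igf2bp3 lie at the floor of the list.

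Few peaks were found in both replicates, in the reader genes as over all genes. A shared peak was present in 3 of the 8 genes (Ythdc2, Igf2bp2 and Igf2bp3), beside 38.7% of the 15995 genes with peaks in both replicates. These 3 are also the longest of the 8. The share of protein-coding genes with a shared peak was 36.7% between 20 and 40 kb, 48.8% between 40 and 80 kb and 61.8% between 80 and 160 kb. Of the 167 replicate 2 peaks in the reader genes 7 were shared, or 4.19% (95% Wilson interval 2.05 to 8.40), against 4.77% over all genes. The interval holds the value of all genes. In the YTHDF genes 0 of 18 were shared, which allows up to 17.6% by the Wilson interval. The YTHDC genes had 7.02% (2.76 to 16.7) and the IGF2BP genes 3.26% (1.12 to 9.15).

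Higher peaks of the readers were not among the shared ones. Which heights can be listed depends on the background. A peak of height 3 or more was present in each replicate in 6 of the 8 genes (all but Ythdc2 and Igf2bp1), beside 37.4% of genes. A shared peak of that height in each replicate was present in 0 of the 8, beside 11.3% of genes. The Ythdf3 pair at heights of 5 and 9 falls short of the overlap of 50%. In the other genes no peaks of that height overlapped between the replicates. In the reader genes 6 of 94 replicate 2 peaks were shared at a height of 1 (6.38%, 95% Wilson interval 2.96 to 13.2) and 1 of 38 at 2 (2.63%, 0.466 to 13.5), against 3.32% and 5.40% over all genes. At a height of 3 it was 0 of 20, which allows up to 16.1%, against 7.56% over all genes. At 4 or 5 it was 0 of 13, which allows up to 22.8%, against 12.98% over all genes, and at 6 or more 0 of 2, which allows up to 65.8%, against 35.5%. Each of these intervals holds the value of all genes, so at these numbers of peaks no difference from all genes was detectable. Folds of the 7 shared pairs ran from 1.83 to 1.95 in replicate 1 and from 1.83 to 2.38 in replicate 2.

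By region, introns held 90.0% of the 411 intervals (95% Wilson interval 86.7 to 92.6), against 90.5% over all genes. Coding sequence held 5.60% (3.76 to 8.26), against 4.41%, and 3' UTRs 4.38% (2.79 to 6.82), against 3.83%. The 5' UTRs held 0 intervals, which allows up to 0.926%, against 0.491% over all genes. Per kb of exon and of intron, the genes differed: Ythdf3 had 0.946 exonic and 0.105 intronic intervals per kb, and Ythdc1 1.51 and 0.378. Ythdf1 had 0.919 and 0.676, Ythdc2 2.22 and 1.73, and Igf2bp3 1.38 and 0.630. Igf2bp2 had the opposite order with 0.742 exonic and 1.49 intronic, as did Ythdf2 with 0.484 and 0.731 and Igf2bp1 with 0.119 and 0.173. These rest on 5 exonic intervals in Ythdf3, 5 in Ythdc1, 3 in Igf2bp2 and 16 in Ythdc2. The others had 3 in Ythdf1, 2 in Ythdf2, 1 in Igf2bp1 and 6 in Igf2bp3. All these classes follow the basic transcripts. Several intervals counted as intronic in Ythdc1, Ythdc2, Igf2bp2 and Igf2bp3 lay in non-coding exons of the comprehensive set.

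Other genes of the m6A pathway were listed for comparison, and each count below stands beside the 38.7% of all genes with a shared peak, a share that was higher in longer genes. Of 11 writers and erasers, which place or remove the mark, 10 had peaks in both replicates and 6 of these had a shared peak. Fto, a demethylase gene of 355 kb, had 17 of the 24 shared peaks of that list, and Rbm15, an adaptor of the writer complex, had 1 and the highest peaks of that list, with heights of 43 in replicate 1 and 29 in replicate 2. Zc3h13 had 3 shared peaks and Mettl14 had 1. Of 7 other proposed readers with peaks in both replicates 1 had a shared peak, Hnrnpa2b1. All 11 CCR4-NOT genes had peaks in both, and 4 had a shared one, with Cnot2 at 4 and Cnot1, Cnot10 and Cnot11 at 1 each. Among other partners of the readers, Xrn1, an exonuclease that binds YTHDC2, was the 1 of 9 with a shared peak.

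The peak lists do not tell the labelled cell type apart from others. Peaks in both replicates were found in 7 of 9 neuron markers, 3 of 5 neural progenitor, 4 of 5 astrocyte, 4 of 5 oligodendrocyte, 4 of 5 microglia and 3 of 5 endothelium markers, beside 65.1% of all protein-coding genes. A height of 3 or more in each replicate was reached by 1 neuron marker (Map2, at 5 in replicate 1 and 4 in replicate 2), 1 neural progenitor marker (Vim, at 7 and 12) and 1 astrocyte marker (Slc1a3, at 3 and 4). In the oligodendrocyte, microglia and endothelium lists 0 markers did so. Nefl among the neuron markers, Gfap among the astrocyte markers and Olig2 among the oligodendrocyte markers had a peak in neither list. The lists give no RNA levels.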

How the data were processed

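The peak list of each WT CLIP library and the list of shared peaks were analysed. Per the submitters' processing notes, Novoalign 3.09.00, MACS2 2.1.1.20160309 and bedtools 2.25.0 were among the tools, with mm10; the sources used here do not give their settings, the control of the peak caller or the way strand was assigned. Each deposited peak has the authors' score (10 times −log10 p, rounded down), a fold (the ratio of pileup to background) and the −log10 p. All 412 peaks of the reader genes lie on the strand of the gene and 0 on the other, so strand may carry no information on the RNA. In the deposited shared list of 16399 pairs, the overlap is at least 50% of the replicate 2 peak.

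Repeated lines (654978 lines in replicate 1, 581790 in replicate 2) were reduced to distinct peaks. Midpoints were placed on GENCODE M21 genes, and on its basic transcripts in the order coding sequence, 3' UTR, 5' UTR, non-coding exon, intron. Exon and intron numbers follow the principal transcript. Heights were solved as the whole number k for which fold is (k + 1)/(background + 1) and p the Poisson probability of more than k reads, within 0.001 of the −log10 p. Such a number exists for all but 2 peaks of each list; 3619 and 2614 peaks had more than 1 solution, of which the closest was taken, among them 3 of Igf2bp2. The solver and the placing of midpoints were tested on simulated data. Heights, the height limit of 3 and the sequences shown were chosen after the data had been seen, and the members and gene lists with earlier results of these data known. Named were all 8 genes, every shared peak, the highest fold per gene and replicate and up to 4 genes a list with most shared peaks; further peaks were chosen after their values were seen. A count table with 8 columns whose names match no sample was not used. Overlaps were found with bedtools 2.31.1 and tables made with pandas 2.3.3 and numpy 2.4.6 under Python 3.11.15, with scipy 1.17.1 for probabilities and matplotlib 3.10.9 for plots.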

Additional observations from a re-analysis of the deposited data

How the results depend on the processing

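Over 7 summary results and their alternatives, 32 of 50 values stayed close to the main ones and 18 moved. Close meant within a fixed factor for counts and within the Wilson interval for the shared percent. For the other values it meant within the SD of the replicates. A move from 3 to 4 genes counted as close. A stricter −log10 p of at least 5 left 33 intervals, 0.0725 per kb, 78.8% of them intronic, with 0 shared peaks in 0 genes, which is 0% of 12 replicate 2 peaks. Keeping only heights of 3 or more, an alternative chosen after seeing the data, left 56 intervals, 0.123 per kb, 75.0% intronic, again with 0 shared peaks in 0 genes and 0% of 35. Transcripts of the comprehensive set lowered the intronic share to 84.9%. The share over all genes was taken on the basic transcripts only, so it cannot stand beside this value. Leaving out 1 replicate gave 167 to 245 intervals, 0.367 to 0.538 per kb, 89.0% to 91.6% intronic and a highest fold of 5.71 to 5.79. An overlap of 1 bp between replicates added the Ythdf3 pair, for 8 shared peaks in 4 genes. Ignoring strand, requiring 1 bp of the gene body or 50% of each peak left every value they bear on as it was. With no peak on the opposite strand of a reader gene, ignoring strand could change nothing. The main values join both lists, so leaving out a replicate could only lower the number of intervals and their number per kb. A stricter limit could likewise only lower them. Part of the tally was therefore fixed in advance, and it is no measure of how robust the results are. No paired analysis was possible because the result comes from no test and the peak lists of only 1 group were used. The number of reads per library is not known, and at a peak of height 1 the caller counted no more than 1 read at any position. A site without a partner in the other replicate is therefore not shown to be unbound there.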
